A study of Mus musculus with 6 samples.

Results

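Alpha and beta tubulin isotypes were followed as 10 named genes, 4 for alpha tubulin (Tuba1a, Tuba1b, Tuba1c and Tuba4a) and 6 for beta tubulin (Tubb2a, Tubb2b, Tubb3, Tubb4b, Tubb5 and Tubb6). They were picked by symbol from a table of 48432 genes, and all 10 had a row. The RNA came from hepatocytes of FVB mice in 3 groups of 2 samples. Normal fed adults ate chow, DDC fed adults had 4 weeks of a diet with DDC, which injures hepatocytes and bile ducts, and the embryonic day 18 (E18) samples were each prepared from the pooled livers of about 8 embryos. No transgene or mutant allele is named for any group. The labels do not tell if different animals gave the 2 adult samples of a group. P-values therefore measure the spread between these samples, which may be technical. Values are TPM, transcript shares per length that sum to 1000000 in each sample, and the samples of a group are called 0 and 1.

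Microtubules are hollow polymers of a dimer of alpha and beta tubulin, which carry vesicle traffic in resting hepatocytes and form the spindle in dividing cells. Mammals encode each subunit in several genes, called isotypes, whose proteins differ most in the acidic tail at the end of the chain, where modifying enzymes act and motors bind. Cells also adjust the stability of tubulin mRNAs to the amount of free dimer. Tubb5 and Tuba1b are widely expressed and abundant in dividing cells, Tubb3 and Tubb2b are known from neurons, Tubb1 from megakaryocytes and platelets, and Tubb4b is widely expressed and also a main isotype of cilia.

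The last 60 coding bases, which encode that tail and the stop codon, are shown for 5 beta isotypes because the isotypes differ most there. Sequences are those of the GENCODE M21 transcript models, and capitals mark bases that differ from Tubb5 in an alignment of the whole coding sequences.
Tubb5: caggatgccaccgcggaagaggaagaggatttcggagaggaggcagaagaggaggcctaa
Tubb2a: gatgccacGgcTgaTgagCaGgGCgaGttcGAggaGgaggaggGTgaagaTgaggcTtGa
Tubb2b: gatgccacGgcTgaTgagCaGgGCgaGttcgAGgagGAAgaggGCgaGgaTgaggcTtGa
Tubb4b: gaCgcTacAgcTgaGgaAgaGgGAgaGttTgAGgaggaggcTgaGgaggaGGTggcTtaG
Tubb3: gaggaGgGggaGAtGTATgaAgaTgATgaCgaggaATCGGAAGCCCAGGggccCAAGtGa

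Tubb2a differed from Tubb5 at 26.7% of these 60 bases, against 14.9% of the bases before them, Tubb4b at 33.3% against 17.1%, and Tubb3 at 53.3% against 17.2%. Over the coding sequence Tuba1a and Tuba1b were 98.3% identical, Tuba1b and Tuba1c 97.9%, and Tubb2a and Tubb2b 96.5%. All other pairs within a family lay between 80.2% and 85.9%, except Tuba1a with Tuba1c at 97.1%. Of the windows of 50 bases in the Tuba1a transcript, 72.9% also occurred in a transcript of another gene, as did 73.8% in Tuba1b, 61.0% in Tuba1c, 49.6% in Tubb2a, 39.3% in Tubb2b and 50.9% in Tubb4b, where the pseudogene Tubb4b-ps1 shared the most. The share was 1.11% in Tuba4a, 0.115% in Tubb5 and 0% in Tubb3 and Tubb6. How the authors assigned such reads is not given in the sources used here, so the split among Tuba1a, Tuba1b and Tuba1c, and that between Tubb2a and Tubb2b, is uncertain. Sums of these sets are given beside their members. The near copies are neighbours: on GRCm38, Tuba1b (98931425 to 98934565), Tuba1a (98949837 to 98953703) and Tuba1c (99029891 to 99038110) lie on chromosome 15, and Tubb2a (34074274 to 34078007) and Tubb2b (34126748 to 34130466) on chromosome 13, all as protein-coding genes.

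The labelled cell type was checked with 14 hepatocyte genes, of which 13 had a row. Their summed level was 64588 and 59579 TPM in the normal fed, 40313 and 39144 in the DDC fed and 22672 and 14681 in the E18 samples. Of the 12 tested, 1 was higher and 1 lower with DDC, with a median log2 fold change of 0.056. At E18 2 were higher and 9 lower than in normal fed samples, with a median of -1.90. Over all genes tested 34.2% were higher and 3.07% lower with DDC, and 63% and 12.7% at E18. Alb, the gene of albumin, was listed at 0 in all 6 samples. Other abundant liver genes were at 0 in whole groups, Apoa1 in both adult groups, Serpina1c in normal fed and Fga and Fgb in E18 samples. A 0 in this table can therefore be a failed estimate, also where it is printed for Tubb3. Genes of other cells were also present. Neutrophil genes (7) summed to 55908 and 66559.8 TPM at E18 and to at most 2.75 TPM in any adult sample, and erythroid genes (10 with a row) to 12702 and 23879 TPM at E18 and to between 28.1 and 39.9 TPM in the adults. Fewer cells of a type and less RNA per cell cannot be told apart in such samples. Their part in the tubulin values was not tested, apart from what is given beside each result. The median log2 difference of all 14307 genes tested was 0.45 for DDC fed against normal fed, 1.06 for E18 against normal fed and -0.55 for DDC fed against E18, so fold changes of isotypes are to be read against these values. With samples scaled by the median of gene ratios instead, the 2 medians that involve E18 were 0.09 and -0.08.

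Tubulin RNA was lowest in the normal fed samples, and the ratio of alpha to beta was lowest with DDC. The 4 alpha genes summed to 236 and 214 TPM in normal fed, 383 and 437 in the DDC fed and 1211 and 1346 in the E18 samples. The 6 beta genes summed to 164 and 203, 756 and 812, and 962 and 1118 TPM. DDC fed samples thus had 1.82 times the alpha and 4.27 times the beta tubulin RNA of normal fed samples, and E18 samples 5.67 times of each. The groups did not overlap in either sum of the deposited TPM.

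In the fit across all genes (limma on log2(TPM + 1), Benjamini-Hochberg adjusted), summed beta tubulin rose with DDC by a log2 fold change of 2.10 ± 0.24 (SE; adjusted p = 0.000862) and summed alpha tubulin by 0.86 ± 0.23 (adjusted p = 0.0247). The alpha result did not hold throughout: it was 0.19 (adjusted p = 0.588) with median-ratio scaling, 0.69 (0.0563) with quantile normalization, 0.95 (0.142) without DDC fed sample 0 and 0.76 (0.223) without DDC fed sample 1. At E18 the alpha sum rose by 2.499 ± 0.23 and the beta sum by 2.5004 ± 0.24 (adjusted p = 6.63e-05 and 8.9e-05). Median-ratio scaling divides the normal fed samples by 0.760 and 0.565 and the E18 samples by 1.52 and 1.51. Both rises at E18 are therefore smaller with that scaling. Between DDC fed and E18 samples the alpha sum was lower with DDC (-1.64 ± 0.23, adjusted p = 0.000778), and the beta sum did not pass (-0.40 ± 0.24, adjusted p = 0.178; 0.13 with median-ratio scaling).

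The ratio of alpha to beta tubulin RNA was 1.44 and 1.06 in the normal fed samples, 0.507 and 0.538 in the DDC fed samples and 1.26 and 1.20 in the E18 samples. The DDC fed samples lay below the other 4, whose groups overlapped each other. A scaling factor per sample cancels in this ratio, but a trend over exon length does not. The difference of sample 1 from sample 0 correlated with exon length at -0.427 (Spearman) in normal fed, -0.204 in DDC fed and -0.105 in E18 samples. Exons of Tuba4a add up to 3701 bases, those of Tubb4b to 2088 and those of Tubb2a to 1610. The part of such a trend in the ratio was not tested. The exact permutation test of 2 samples against 2 cannot give a two-sided p below 0.333, and no other test of the ratio was run. With Tuba8, Tubb1 and Tubb4a counted in, the mean ratios were 1.25 ± 0.27, 0.531 ± 0.024 and 1.11 ± 0.016 (SD, n = 2 each).

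**Figure D1:**
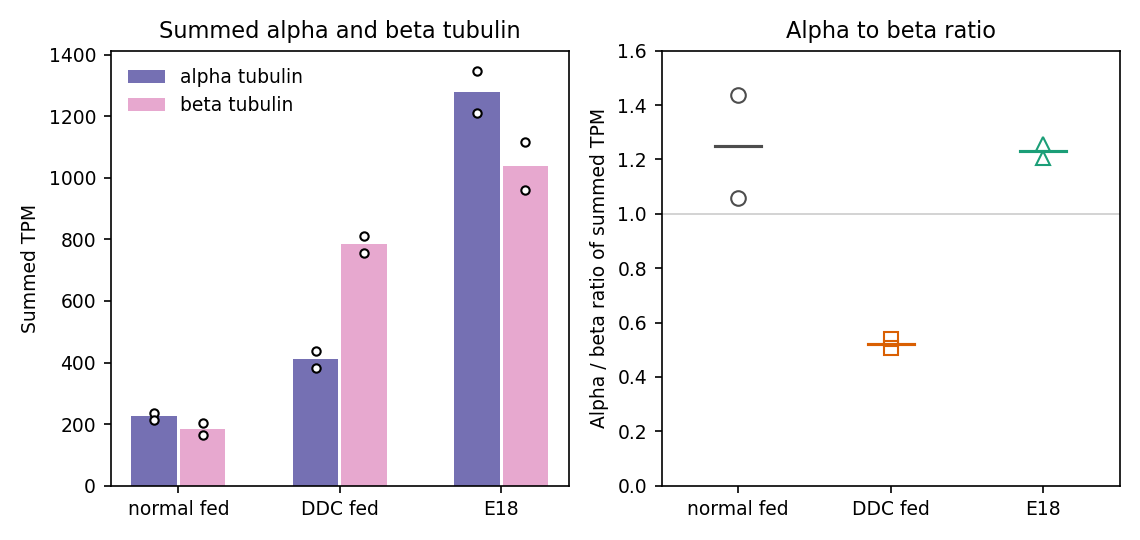
Left, summed TPM of the 4 alpha and 6 beta tubulin genes (bars, mean of 2 samples; circles, single samples) in each group. Right, the ratio of the sums in each sample (symbols) with its mean (line); the DDC fed samples, at 0.507 and 0.538, lie below the other 4.

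In normal fed adults the order of levels was Tuba4a (168 ± 6.72 TPM, SD, n = 2), Tubb4b (112 ± 19.6), Tubb2a (40.9 ± 8.90), Tuba1c (36.5 ± 6.81), Tubb5 (28.4 ± 1.05), Tuba1b (11.6 ± 0.041), Tuba1a (9.13 ± 1.69), Tubb6 (2.57 ± 0.35), Tubb2b (0.0427 ± 0.0064) and Tubb3, listed at 0 in both samples. Tubb2a and Tuba1c overlapped, and no other neighbours did. In the DDC fed samples Tubb4b (317 ± 6.63) and Tubb2a (286 ± 32.9) led, ahead of Tuba4a (205 ± 19.6) and Tubb5 (125 ± 5.45), and no neighbours overlapped. At E18 Tuba1b (570.1 ± 48.3), Tuba4a (530.1 ± 37.95) and Tubb5 (516 ± 84.1) overlapped at the top, and Tubb4b followed (409 ± 55.0).

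**Figure D2:**
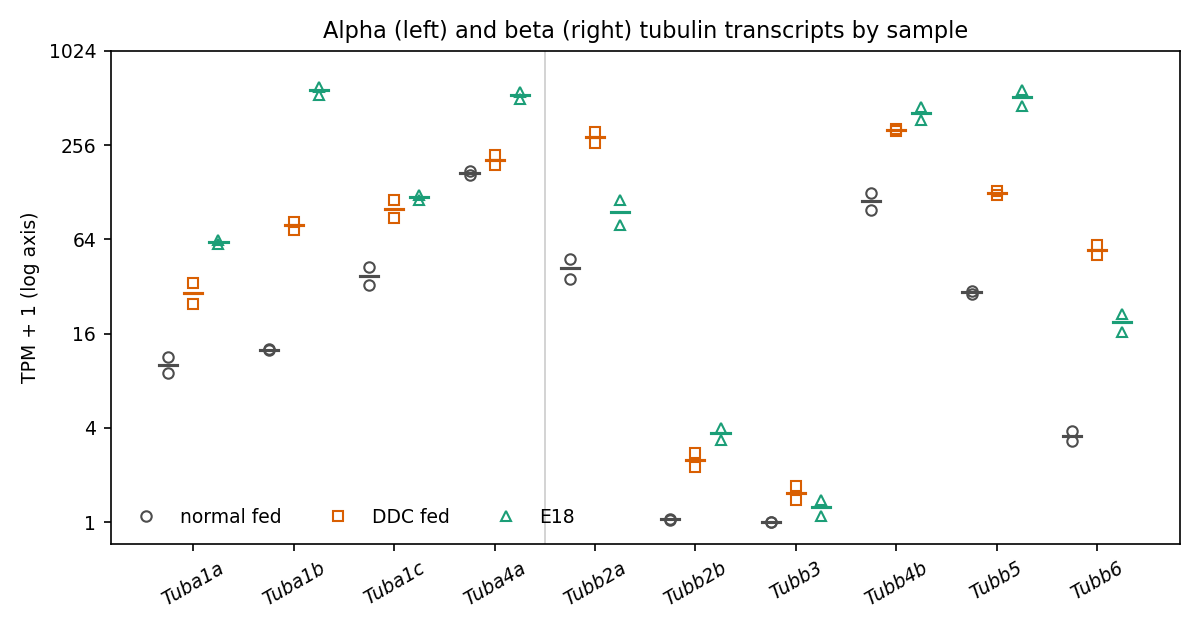
TPM + 1 on a log axis for the 10 isotypes, with 1 symbol per sample and a line at the group mean. Tubb2a and Tubb6 are highest in the DDC fed samples, whereas Tuba1b and Tubb5 are highest at E18.

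The hepatocyte samples of DDC fed adults had higher TPM of most isotypes than those of normal fed adults. Of the 9 isotypes tested, 8 rose, none fell and Tuba4a did not pass. Over all 14307 genes tested 37.3% passed, 34.2% higher and 3.07% lower. The genes tested had at least 1 TPM in at least 2 samples. Tubb3 did not reach that level, and Tubb2b reached it through the DDC fed and E18 samples alone, so it had to differ. The median log2 fold change of the 9 was 1.51. Without DDC fed sample 1, 7 rose, since Tuba1c then had an adjusted p of 0.0501, and with median-ratio scaling 7 rose, since Tubb4b then had 0.0781.

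Tubb6, a beta isotype of low abundance in most adult tissues, had 2.82 and 2.32 TPM in normal fed samples, 50.05 and 57.4 in DDC fed samples and 20.3 and 15.4 at E18. Both DDC fed samples lay above all 4 others, and both E18 samples above the normal fed ones. Its log2 fold change with DDC was 3.94 ± 0.22 (adjusted p = 7.57e-05), from 2.95 to 4.34 over the 16 alternatives.

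Tubb2a, which shares much of its sequence with Tubb2b, had 34.6 and 47.2 TPM in normal fed, 263 and 309 in the DDC fed and 112 and 77.5 in the E18 samples. The DDC fed samples were again the highest, with no overlap between groups. The rise with DDC was 2.79 ± 0.27 (adjusted p = 0.000448), or 6.998 times in TPM. Summed with its near copy Tubb2b the rise was 2.79 ± 0.27 as well (adjusted p = 0.00044).

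Among the isotypes that rose further at E18, Tubb5 was at 29.1 and 27.6 TPM in normal fed, 129 and 122 in DDC fed and 456 and 575 in E18 samples. Tuba1b was at 11.7 and 11.6, 82.1 and 72.8, and 536 and 604 TPM in the same order. In both genes the groups stood apart, with the DDC fed samples between the other groups. The rises with DDC were 2.10 ± 0.21 for Tubb5 (adjusted p = 0.000476) and 2.63 ± 0.19 for Tuba1b (adjusted p = 0.000171).

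Smaller fold changes were seen for the other isotypes. Tubb4b had 97.6 and 125 TPM in normal fed, 312 and 321 in the DDC fed and 369.6 and 447 in the E18 samples, and rose by 1.51 ± 0.23 (adjusted p = 0.00289; 0.84 with median-ratio scaling). Tuba1a went from 10.3 and 7.94 to 23.6 and 32.4 TPM, and Tuba1c from 41.3 and 31.7 to 86.2 and 113 TPM. In both genes each DDC fed sample lay above each normal fed one, and the rises were 1.51 ± 0.23 and 1.42 ± 0.23 (adjusted p = 0.00311 and 0.00379). The sum of Tuba1a, Tuba1b and Tuba1c rose by 1.83 ± 0.22 (adjusted p = 0.00102).

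Tuba4a, the alpha isotype with the highest level in normal fed samples and with 1.11% of its windows shared with another gene, was at 173 and 163 TPM in normal fed and 191 and 219 in DDC fed samples. The DDC fed samples were higher without overlap, yet the difference of 0.28 ± 0.21 did not pass (adjusted p = 0.320), and it was -0.39 with median-ratio scaling and -0.27 with the exon-length correction. Tubb2b stayed at low levels, 0.038 and 0.047 TPM in the normal fed, 1.24 and 1.77 in the DDC fed and 3.01 and 2.36 in the E18 samples (1.26 ± 0.16 with DDC, adjusted p = 0.00123). Tubb3 was at 0.387 and 0.689 TPM with DDC and 0.393 and 0.101 TPM at E18; no fold is given against the normal fed samples, where it is listed at 0.

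Markers of dividing cells and of other liver cells moved with these rises. The 13 genes of dividing cells all rose with DDC, their sum being 32.3 and 32.9 TPM in normal fed and 322 and 319 in DDC fed samples. All 11 macrophage genes rose, from sums of 144 and 122 to 1195 and 1457 TPM. Of 10 stellate cell and fibroblast genes 9 rose (25.5 and 11.6 to 372 and 329.9 TPM), as did 9 of 10 endothelial genes (48.5 and 16.3 to 190.5 and 198 TPM). Of the 8 cholangiocyte genes tested 3 rose, a share near the 34.2% of all genes tested that were higher with DDC. The sums of the cholangiocyte list went from 14.2 and 12.2 to 88.4 and 111 TPM. Of the genes tested, 9 of the dividing cell, 8 of the stellate cell and 5 of the cholangiocyte lists were under 1 TPM in both normal fed samples. Within these lists, Acta2 of myofibroblasts is listed at 0 in the normal fed samples and was at 0.160 and 0.121 TPM with DDC. Krt19 of bile duct cells was at most 0.227 TPM in any adult sample. Both genes were chosen after their values were seen, and the sums of their lists rose. The part of these cells in the tubulin rises was not tested.

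E18 samples held more of the isotypes than normal fed adults, by widely different factors. All 9 tested isotypes rose, where 75.7% of all genes tested passed, 63% higher and 12.7% lower. Among the 9, Tubb2b was tested through the DDC fed and E18 samples alone, so it had to differ and supports no rise of its own. The median log2 fold change of the 9 was 1.87. The count depends on the scaling: with median-ratio scaling 5 rose (Tuba1a, Tuba1b, Tubb2b, Tubb5 and Tubb6).

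Tuba1b rose by 5.50 ± 0.19 (adjusted p = 1.67e-06) and Tubb5 by 4.13 ± 0.21 (adjusted p = 4.39e-06), which are 49.0 and 18.2 times the normal fed level in TPM. With median-ratio scaling these were 4.33 and 2.94. Tuba1a, at 58.5 and 62.4 TPM at E18, rose by 2.61 ± 0.23, and Tubb6 by 2.39 ± 0.22 (adjusted p = 6.47e-05 and 7.63e-05). The summed Tuba1a, Tuba1b and Tuba1c rose by 3.69 ± 0.22 (adjusted p = 8.67e-06).

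Isotypes nearer to the median of all genes were Tubb4b (1.87 ± 0.23), Tuba1c (1.67 ± 0.23), Tuba4a (1.65 ± 0.21) and Tubb2a (1.19 ± 0.27), with adjusted p of 0.000316, 0.000565, 0.000351 and 0.00573. With median-ratio scaling they were 0.67, 0.48, 0.45 and 0.00098, and none of these passed (adjusted p = 0.0896, 0.05, 0.111 and 0.999). Tubb2a also did not pass without E18 sample 0 (0.92, adjusted p = 0.0547), with the exon-length correction (0.59, 0.0717) or with quantile normalization (0.72, 0.0703). Tuba4a was at 503 and 557 TPM and Tuba1c at 113 and 122 TPM in these samples. Tubb2b, low throughout, was higher by 1.82 ± 0.16 (adjusted p = 5.27e-05), but it had to differ, as said above. The sum of Tubb2a and Tubb2b rose by 1.23 ± 0.27 (adjusted p = 0.0049), but was 0.04 (0.924) with median-ratio scaling and 0.77 (0.055) with quantile normalization.

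At E18 the 13 genes of dividing cells summed to 1977 and 2613 TPM, and all rose. The 8 megakaryocyte genes summed to 2126 and 2372 TPM against 1.51 to 6.52 TPM in the adults, and macrophage genes to 3851 and 4912 TPM. All 10 endothelial genes (sums of 514 and 509 TPM) and all 10 stellate cell and fibroblast genes (349 and 318 TPM) were also higher than in normal fed samples. Over all genes tested 63% were higher in this comparison. None of the 7 neutrophil, 10 erythroid or 8 megakaryocyte genes is listed at 0 in both E18 samples. How much of the tubulin RNA came from blood-forming, endothelial or stellate cells was not tested.

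**Figure D3:**
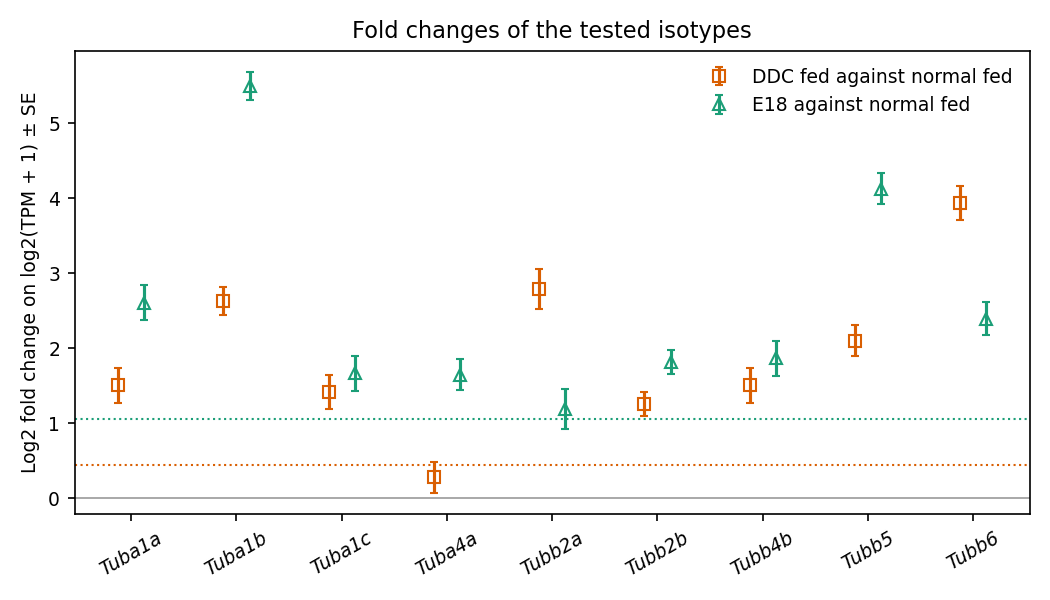
Log2 fold changes on log2(TPM + 1), with SE, of the 9 tested isotypes against normal fed adults, with DDC (squares) and at E18 (triangles); dotted lines mark the medians of all genes tested (0.45 and 1.06). Both comparisons share the normal fed samples. Tubb2a and Tubb6 are higher with DDC than at E18, and the difference for Tuba4a with DDC, 0.28, turns to -0.39 with median-ratio scaling.

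DDC fed adults and E18 samples were then compared directly. The fold changes of the deposited TPM do not use the normal fed levels here. The filter and the variance of each gene, and so the SE and adjusted p, do use them. Of the 9 isotypes tested, 2 were higher with DDC and 5 lower, where 64.7% of all genes tested passed, 17.7% higher and 47% lower. Tubb2a (1.602 ± 0.27, adjusted p = 0.00192) and Tubb6 (1.55 ± 0.22, adjusted p = 0.000959) were the higher ones, at 3.02 and 3.01 times the E18 level in TPM. Both passed under all 16 alternatives.

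Lower with DDC were Tuba1b (-2.86 ± 0.19, adjusted p = 2.52e-05), Tubb5 (-2.02 ± 0.21, adjusted p = 0.000183), Tuba4a (-1.37 ± 0.21, adjusted p = 0.00124), Tuba1a (-1.10 ± 0.23, adjusted p = 0.00574) and Tubb2b (-0.56 ± 0.16, adjusted p = 0.0176). Tuba1b, Tubb5 and Tuba4a passed under all 16 alternatives. Tuba1a did not pass without DDC fed sample 0, E18 sample 0 or E18 sample 1 (adjusted p = 0.0658, 0.0530 and 0.0687). Tubb2b did not pass without DDC fed sample 0 or E18 sample 0 (0.114 and 0.0864), with median-ratio scaling (0.278) or with the exon-length correction (0.196), and with quantile normalization its difference was 0.24. Tubb4b (-0.36 ± 0.23, adjusted p = 0.208) and Tuba1c (-0.25 ± 0.23, adjusted p = 0.374) did not pass; with median-ratio scaling they were 0.17 and 0.28, and with quantile normalization Tubb4b passed (-0.71, adjusted p = 0.0352). Of the summed near copies, Tuba1a, Tuba1b and Tuba1c were lower with DDC (-1.86 ± 0.22, adjusted p = 0.000352), and Tubb2a and Tubb2b higher (1.57 ± 0.27, adjusted p = 0.00208).

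The makeup of each family, as a share of its summed TPM, differed between the groups and does not depend on a scaling factor per sample. A trend over exon length does not cancel in these shares. Tuba4a made up 73.2% and 76.1% of alpha tubulin RNA in the normal fed, 49.9% and 50.1% in the DDC fed and 41.6% and 41.4% in the E18 samples. Tuba1b made up 4.94% and 5.41%, 21.4% and 16.7%, and 44.3% and 44.9%. So Tuba4a was the single alpha isotype with the largest share in the adults, and at E18 Tuba1b exceeded it in share in both samples. The split among Tuba1a, Tuba1b and Tuba1c is uncertain. Their sum was 63.3 and 51.2 TPM in normal fed, 192 and 218 in DDC fed and 707 and 789 in E18 samples. Tuba4a had 173 and 163, 191 and 219, and 503 and 557 TPM in the same order. Tuba1c held 24.2% ± 2.34 with DDC, against 16.1% ± 1.93 in normal fed and 9.20% ± 0.17 in E18 samples (SD, n = 2).

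Of beta tubulin RNA, Tubb4b made up 59.5% and 61.9% in the normal fed, 41.3% and 39.6% in the DDC fed and 38.4% and 40.02% in the E18 samples. Its share is uncertain, since 50.9% of its windows of 50 bases also occur in another gene. Tubb2a held 21.1% and 23.3%, 34.8% and 38.1%, and 11.7% and 6.94%. Tubb5 held 17.7% and 13.6%, 17.1% and 14.96%, and 47.4% and 51.4%. The share of Tubb5 thus overlapped between the adult groups although its level rose with DDC, whereas Tubb2a and Tubb6 (6.85% ± 0.32 with DDC against 1.43% ± 0.40 in normal fed and 1.75% ± 0.52 in E18 samples) gained share with DDC without overlap. With 2 samples a group no exact test of a share can pass.

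**Figure D4:**
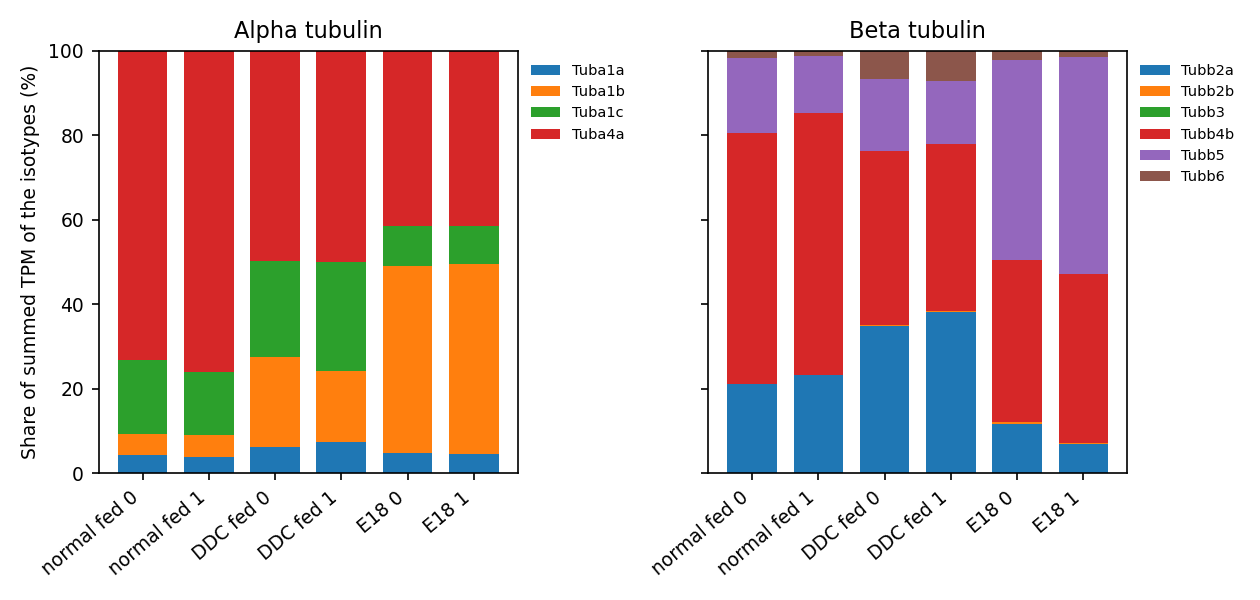
Share of each isotype in the summed TPM of the 4 alpha (left) and 6 beta (right) tubulin genes, 1 bar per sample. Tuba4a and Tubb4b are the largest parts in normal fed samples, at 73.2% or more and 59.5% or more, and at E18 Tuba1b and Tubb5 are, at 44.3% or more and 47.4% or more.

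Promoter windows from RefSeq (GRCm38.p6), 250 bases before to 50 after the annotated start, were matched for 8 of the 10 isotypes, Tubb2b and Tubb6 aside. They were searched on both strands for CCAAT (the CCAAT box), TATAAA (the TATA box), GGGCGG (the GC box), TTTGAA (the CHR element of cell cycle genes), TGACGTCA (the cAMP response element), GGAATG (the TEAD element) and CACGTG (the E-box), none of which holds another. Shown are those of Tubb2a, Tubb4b and Tubb5, the 3 beta isotypes with the highest mean levels in each group. They are printed 5′ to 3′ along the gene, with matches in capitals. All 3 genes lie on the minus strand, Tubb2a at chr13:34077959-34078258, Tubb4b at chr2:25224653-25224952 and Tubb5 at chr17:35838252-35838551.
Tubb2a: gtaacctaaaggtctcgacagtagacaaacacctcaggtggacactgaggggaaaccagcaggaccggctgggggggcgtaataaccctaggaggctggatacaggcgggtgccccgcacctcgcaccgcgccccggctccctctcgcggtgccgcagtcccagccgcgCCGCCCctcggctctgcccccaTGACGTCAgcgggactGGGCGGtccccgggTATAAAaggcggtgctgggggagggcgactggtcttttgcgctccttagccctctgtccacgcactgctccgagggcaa
Tubb4b: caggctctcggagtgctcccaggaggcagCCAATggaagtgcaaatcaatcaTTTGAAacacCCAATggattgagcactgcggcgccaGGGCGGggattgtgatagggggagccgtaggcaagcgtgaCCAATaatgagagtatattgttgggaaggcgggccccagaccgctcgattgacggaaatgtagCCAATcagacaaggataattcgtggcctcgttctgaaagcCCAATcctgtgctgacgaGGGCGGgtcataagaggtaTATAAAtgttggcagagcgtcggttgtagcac
Tubb5: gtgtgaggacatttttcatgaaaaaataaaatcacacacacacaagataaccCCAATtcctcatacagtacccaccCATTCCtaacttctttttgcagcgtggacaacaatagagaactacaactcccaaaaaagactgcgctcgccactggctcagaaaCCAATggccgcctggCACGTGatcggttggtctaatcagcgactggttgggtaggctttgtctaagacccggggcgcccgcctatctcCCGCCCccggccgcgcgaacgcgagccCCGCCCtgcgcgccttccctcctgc

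The window of Tubb2a held no CCAAT, and it alone of the 8 held TGACGTCA, which occurs in 1.79% of the 32851 windows in the table. Tubb4b held 5 matches of CCAAT, a number reached by 89 windows or 0.271% of the table, and Tubb5 held 2. Over the 8 windows, CCAAT occurred in 5 (37.4% of all windows) and GGGCGG in 7 (35.7% of all windows). TATAAA occurred in 2 of the 8 (13.6% of all windows). Its first base lay at -29 from the annotated start in Tubb2a, and at 18, after that start, in Tubb4b. TTTGAA occurred in Tubb4b alone (17.9% of all windows), and GGAATG and CACGTG in Tubb5 alone (14.7% and 7.15%). Tuba1b, which had the highest mean level at E18 but overlapped with Tuba4a there, held 2 matches of GGGCGG and none of the others. A match describes letters in the window and not binding.

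**Figure D5:**
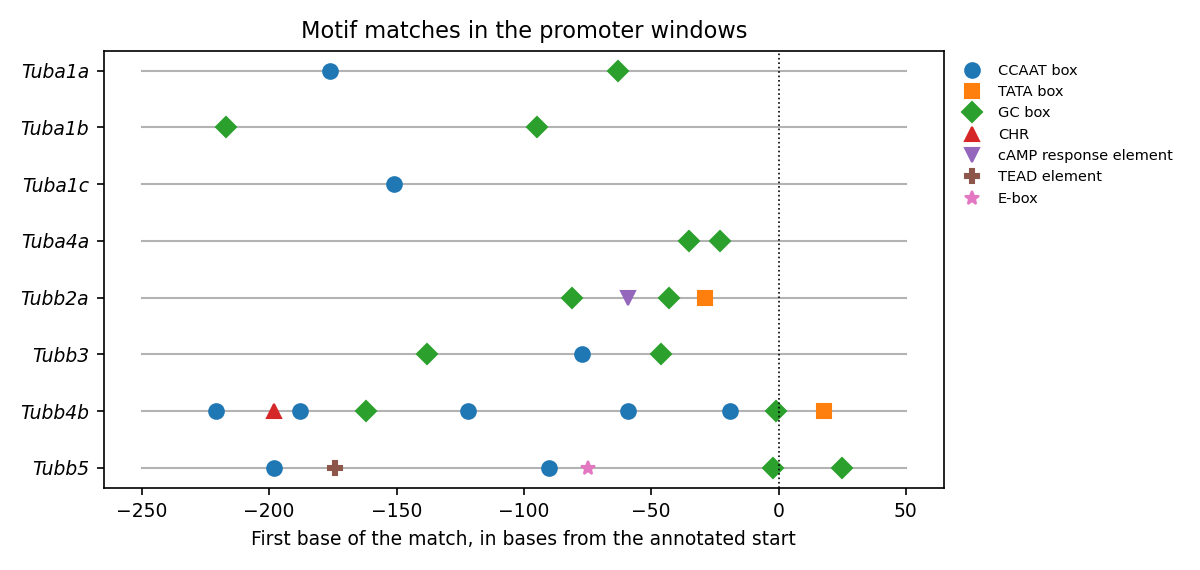
Positions of the motif matches in the 8 promoter windows, as bases from the annotated start (dotted line), with 1 symbol per match. Tubb4b has 5 CCAAT matches, and Tubb2a has the cAMP response element and no CCAAT match.

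The lists of related genes that follow are to be read against all genes tested, of which 34.2% were higher and 3.07% lower with DDC, and 63% higher and 12.7% lower at E18. With median-ratio scaling these shares were 20.5% and 11.6% with DDC and 38% and 31.8% at E18, and with quantile normalization 14.6% and 14.4%, and 32% and 36.6%. Some listed genes were under 1 TPM in both normal fed samples, so that they were tested because they were higher elsewhere and had to differ: 3 of the 5 other tubulins (Tuba8, Tubb1 and Tube1), 4 of the 18 modification genes (Ttll3, Ttll7, Ttll11 and Vash1), 1 nucleation gene (Haus6), 5 lattice and end-binding genes (Clip2, Map2, Map7d3, Mapt and Tppp3), 4 of the stathmin list (Fignl1 and Kif2c among them), 17 of the 18 spindle genes and 1 motor (Kif5c). Counts that hold these genes describe the lists and support no change of their own. None of the folding genes was of this kind.

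Other tubulin genes are described singly. Tubb1 reached at most 0.028 TPM in the adults and at 124 and 116 TPM at E18 (6.90 ± 0.17, adjusted p = 1.03e-06), beside the other megakaryocyte genes named above. Tuba8, an alpha isotype, rose from 0.0368 ± 0.015 TPM to 6.84 ± 1.55 with DDC (2.91 ± 0.21, adjusted p = 0.000165) and was at 12.0 ± 1.32 TPM at E18. The difference of Tuba8 between DDC fed and E18 samples (-0.74 ± 0.21, adjusted p = 0.0176) was -0.25 with median-ratio scaling (adjusted p = 0.263) and 0.073 with quantile normalization. Tube1, the epsilon tubulin of centrioles, passed with DDC (0.56 ± 0.13, adjusted p = 0.0168), but was -0.066 with the exon-length correction and -0.16 with quantile normalization. At E18 Tube1 rose by 2.35 ± 0.13. In all, 2 of the 5 other tubulins tested were higher with DDC and 3 at E18, shares near the 34.2% and 63% of all genes tested.

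Genes that fold tubulin, among them the CCT chaperonin, prefoldin and the cofactors that join the dimer, had small fold changes with DDC. Of 23, 5 passed with DDC, all higher: Tbcel (1.71 ± 0.28), Tbcd (1.32 ± 0.28), Ttc5 (0.95 ± 0.21), Tbce (0.81 ± 0.18) and Pdcl3 (0.77 ± 0.19). Tbcd and Tbce are assembly cofactors, and Ttc5 acts in the decay of tubulin mRNA when free dimer is in excess. Their median was 0.30, below the 0.45 of all genes. Tbce, Ttc5 and Pdcl3 did not pass with median-ratio scaling (adjusted p = 0.538, 0.102 and 0.605), and Tbcd did not without DDC fed sample 0 (0.1). At E18 14 of the 23 rose, a share near the 63% of all genes tested, and their list had a median of 0.85, below the 1.06 of all genes. Lowest in adjusted p were Ttc5 (1.99 ± 0.21), Arl2 (1.85 ± 0.21; 0.42 with quantile normalization, adjusted p = 0.131) and the chaperonin subunit Cct7 (1.31 ± 0.19; 0.12 with median-ratio scaling). With median-ratio scaling 2 were higher and 2 lower with DDC, and 2 higher and 6 lower at E18.

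Enzymes that modify tubulin, such as the TTLL ligases, passed in 6 of 18 cases with DDC, all higher, a share near that of all genes. They were led by Ttll7 (1.29 ± 0.14), Ttll11 (1.06 ± 0.15) and Ttll1 (0.97 ± 0.17). At E18 13 rose and 2 fell, led by Vash1, which removes the last tyrosine of alpha tubulin (2.97 ± 0.16), Ttll11 (2.59 ± 0.15) and Ttll3 (1.98 ± 0.20). Vash1 and Ttll3 reached 1 TPM in E18 samples alone. With median-ratio scaling 4 were higher and 1 lower with DDC, and 8 higher and 5 lower at E18. With quantile normalization they were 1 and 4 with DDC, Ttll11 and Ttll1 not passing (adjusted p = 0.0642 and 0.721), and 5 and 7 at E18, Ttll3 not passing (0.382). Of 19 nucleation genes 10 rose with DDC and 17 at E18 (3 higher and 1 lower, and 11 higher and 2 lower, with median-ratio scaling; 2 higher with DDC with quantile normalization). Haus8, of the augmin complex that branches spindle microtubules, led both (3.48 ± 0.22 and 3.61 ± 0.22), followed with DDC by Cdk5rap2 (1.505 ± 0.24; 0.61 with quantile normalization, adjusted p = 0.0614) and Tubgcp2 (1.64 ± 0.28), and at E18 by Haus6 and Haus5 (both 2.89, SE 0.18 and 0.20).

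Proteins that bind the lattice or its ends rose in 16 of 23 cases with DDC (9 higher and 1 lower with median-ratio scaling), led by Clip2 (2.26 ± 0.18), Mapt, the gene of tau (2.45 ± 0.28), and Mapre3, an end-binding protein (1.83 ± 0.23). Mapre3 was at 20.6 and 14.8 TPM in normal fed, 64.5 and 64.8 in DDC fed and 5.28 and 4.24 in E18 samples. Its relative Mapre1 was at 11.0 and 10.4, 26.6 and 27.3, and 117 and 129 TPM. The pair thus had opposite orders in DDC fed and E18 samples: Mapre3 was higher with DDC (3.52 ± 0.23, adjusted p = 2.37e-05) and Mapre1 lower (-2.15 ± 0.18, adjusted p = 7.41e-05). At E18 against normal fed, 14 of the 23 rose, a share near the 63% of all genes tested, and 1 fell. Under median-ratio scaling these counts were 12 and 7, and under quantile normalization 9 and 8.

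Stathmin and the spindle genes were lowest in normal fed and highest in E18 samples. Most isotypes tested had this order too. The medians of all genes tested went the same way (0.45 with DDC, 1.06 at E18 and -0.55 for DDC fed against E18). Stmn1, which binds free dimer and is abundant in dividing cells, was at 2.98 and 4.48 TPM in normal fed, 61.3 and 70.5 in DDC fed and 259 and 338 in E18 samples (3.84 ± 0.25 with DDC and 5.99 ± 0.25 at E18; adjusted p = 0.000114 and 2.24e-06). Of the 9 stathmins, depolymerases and severing enzymes tested, 6 rose with DDC and 9 at E18 (6 and 7 with median-ratio scaling; 3 with DDC, and 5 higher and 2 lower at E18, with quantile normalization). After Stmn1 came Kif2c and Fignl1 in both comparisons. All 18 spindle genes tested, 17 of them under 1 TPM in normal fed samples, rose with DDC and at E18, also with median-ratio scaling (15 and 18 with quantile normalization). All 18 were lower with DDC than at E18, where 47% of all genes tested were lower. Prc1, which bundles microtubules in the midzone, led both comparisons against normal fed samples (3.88 ± 0.21 and 6.40 ± 0.21). No spindle gene of the list is among the 13 markers of dividing cells.

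Of 27 transport motor genes tested, 16 rose with DDC, with a median of 0.82, led by Kif5c (1.24 ± 0.11), which reached 1 TPM in DDC fed samples alone and did not pass with the exon-length correction (0.62, adjusted p = 0.0571), Kif3a (1.52 ± 0.21) and Kifap3 (1.15 ± 0.21). Kif5c is a kinesin heavy chain, and Kif3a and Kifap3 belong to kinesin-2. With median-ratio scaling 4 rose, and with quantile normalization 3, Kifap3 not passing (adjusted p = 0.244). At E18 16 rose, a share below that of all genes, led by Kif3a (2.32 ± 0.21), the dynactin subunit Dctn1 (1.82 ± 0.20) and the kinesin light chain Klc1 (1.84 ± 0.21), whereas 3 fell. Median-ratio scaling gave 9 higher and 8 lower at E18, and quantile normalization 8 and 7.

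The genes most like the isotypes were sought over the 6 samples, as the distance between a gene's centred log2(TPM + 1) values and the mean of the 9 isotypes tested. Of 8005 other genes with a mean of at least 10 TPM, the nearest were Mpp1 (distance 0.28), Rassf1 (0.30), Arhgef3 (0.30), Ywhah (0.31) and Cdc42se1 (0.31). The isotypes themselves lay at distances of 0.62 to 3.11 from their own mean, so each of them was less like that mean than these 5 genes were. Mpp1 was at 17.3, 73.8 and 98.4 TPM on average in the normal fed, DDC fed and E18 samples.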

How the data were processed

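The authors deposited 1 table of TPM for 6 samples, each column summing to 1000000. The libraries were stranded and made from polyA RNA, per the labels' protocols. Named without their roles in the submitters' processing notes are Cuffdiff 2.2.1, DESeq2, HTSeq, STAR 2.4.2a, Picard 1.119, Trimmomatic and bcl2fastq 2.17.1.14, with GRCm38 (mm10) as build. Which of them gave the deposited TPM is not given in the sources used here. Counts are not in that table, so depth and counting error are unknown. Columns are numbered 0 and 1 and titles 1 and 2, so columns were matched to groups only.

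Symbols were found for 48053 of 48432 identifiers (GENCODE M21). The 14307 genes that reached 1 TPM in 2 or more samples were fitted as log2(TPM + 1) with 1 mean per group (limma 3.58.1, R 4.3.3, empirical Bayes with a mean trend, 3 residual degrees of freedom). P-values are two-sided and Benjamini-Hochberg adjusted over all genes tested, with a threshold of 0.05. A log2(TPM + 1) fold change understates changes of low genes. The fit was tested on simulated data. Sums of isotypes were fitted as added rows, a step chosen after seeing the data.

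All 10 isotypes are named. From each related list and comparison described, the names are those of the 3 passing genes lowest in adjusted p, or of every passing gene where there were 5 or fewer. Genes shown for a pattern (Mapre1 and Mapre3 by sample) were among these. Members, lists and motifs were chosen with earlier results of these data known. Coding sequences were aligned with Biopython 1.88. The alternatives were pseudocounts of 0.1 and 5, no filter or a mean of 5 TPM, median-ratio scaling, quantile normalization, subtraction of each sample's trend over exon length, the column number as a block, only the compared groups, no variance trend, and each sample left out. A lone sample left in a group is taken to have the spread of the others.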

Additional observations from a re-analysis of the deposited data

How the results depend on the processing

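Against the 8, 9 and 7 isotypes that passed for DDC fed against normal fed, E18 against normal fed and DDC fed against E18, the alternatives gave 7 to 8, 5 to 9 and 5 to 7, the 5 at E18 with median-ratio scaling. With the replicate block the counts were 8, 9 and 7; deviations of samples with the same column number correlated at 0.233, 0.139 and 0.0605 between groups, which does not establish a pairing. Of the fold changes of isotypes under the alternatives, 406 kept their direction and side of the threshold, 16 lost and 1 gained significance, and 6 changed sign. The sign changes were Tuba4a with DDC (-0.39 after median-ratio scaling and -0.27 after exon-length correction), and, for DDC fed against E18, Tuba1c (0.28 and 0.028 in the same order), Tubb4b (0.17 with median-ratio scaling) and Tubb2b (0.24 with quantile normalization). Summed beta tubulin for DDC fed against E18 was 0.13 in log2 and 1.09 as a ratio with median-ratio scaling. Among other genes Tuba8 changed sign for DDC fed against E18 (0.073 with quantile normalization), and Tube1 with DDC (-0.066 with the exon-length correction, -0.16 with quantile normalization). Among the fold changes of other genes, 47 lost significance. The cause was not tested. Sums of isotypes have no value under the exon-length correction. Over all genes, the share passing with DDC was 37.3%, and 62.5% without normal fed sample 0, 19.7% and 19.3% without DDC fed sample 0 or 1, and 17.5% with no filter; at E18 it ranged from 54.2% to 82.8% (75.7%), and for DDC fed against E18 from 42.8% to 78.2% (64.7%).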
